A study of Oryza sativa with 5 samples.

Results

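In the male meiocytes of rice, the pollen mother cells that enter meiosis, 223 of 16414 regions of histone H3 trimethylated at lysine 27 (H3K27me3) were short, stood alone and carried no peak of histone H3 trimethylated at lysine 4 (H3K4me3). They were chosen from the deposited peak lists themselves. A region is a run of bases covered by peaks of both H3K27me3 libraries, with touching pieces joined. An isolated short region measured at least 500 bp and under 2000 bp, had no other H3K27me3 region within 20 kb on either side, and shared no base with a peak of either H3K4me3 library. The study mapped both marks with a ChIP-seq protocol for low cell input and comprised 5 samples, with 2 biological replicate libraries of H3K27me3, 2 of H3K4me3 and 1 input, which was not analysed here. All samples are Oryza sativa cells in early prophase I, and the labels give no variety, genotype or treatment. Because the rule read all 4 lists, every value below is a description of called peaks and carries no test.

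H3K27me3 is deposited by Polycomb repressive complex 2 and is usually found over silent developmental genes, where it often spreads into domains several nucleosomes long. At the Arabidopsis locus FLC it is known to begin in a short nucleation region before it spreads along the gene. H3K4me3 is usually found at the starts of transcribed genes, so the distance to the nearest H3K4me3 summit, the point of highest signal that the peak caller gives for each narrow peak, is a measure of how far a region lies from such sites. Positions are those of the lists, for which no source used here names a genome build, and therefore no gene is named.

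The isolated short regions were few and small. Of the 16414 regions, 7358 measured 500 bp to under 2000 bp, 5028 of these had no base in an H3K4me3 peak, and 223 of the 5028 (4.44%) were isolated. Together the 223 covered 208 kb, or 1.19% of the bases with H3K27me3 in both libraries. Their lengths ran from 500 to 1991 bp with a median of 826 bp, and 143 of them were under 1000 bp. The other 4805 short regions without H3K4me3, called clustered short regions below, had a median length of 871 bp. Isolation became rarer with length. It held for 7.94% of all regions of 500 bp to under 1000 bp, with or without H3K4me3, for 6.27% of those of 1000 to under 2000 bp and for 1.61% of those of 5000 bp and over. The number of members moved with the limit, with 376 when isolation was set at 10 kb and 81 at 50 kb.

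Isolation did not go with absence of H3K4me3. Among all 534 isolated regions of this length 41.8% were free of H3K4me3 peaks, against 70.4% of the 6824 that had a neighbour within 20 kb. The 311 isolated short regions that did touch an H3K4me3 peak serve below as a second set for comparison. No test was made between sets, since the same lists defined them.

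The members just inside and just outside the limits show how the limits fall. The 3 shortest, on chromosomes 1, 9 and 4, measured 500, 502 and 503 bp, and the 3 regions just too short measured 498, 497 and 493 bp. The 3 longest measured 1991, 1940 and 1893 bp, and the 3 just too long 2003, 2045 and 2064 bp. The member with the closest neighbour, on chromosome 6 at 28000946 to 28002107, had another region 20177 bp away, and the nearest region left out, on chromosome 11 at 14264045 to 14264956, had one at 19765 bp. The nearest other region lay at a median of 38.8 kb from the members. For 81 members (36.3%) it was more than 50 kb away and for 23 (10.3%) more than 100 kb. The most isolated member, on chromosome 10 at 8599564 to 8600384, had no other region for 776680 bp on its left and 327978 bp on its right. In the H3K27me3 lists its peaks were in the 60.3rd and 53.2nd percentile of fold in replicates 1 and 2.

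The H3K27me3 peaks behind the isolated short regions stood near the middle of their lists, and each member rested on 1 peak of each library, as did every clustered short region. The deposited fold enrichment of a peak over the caller's background is the authors' value and was turned into a percentile within its own list. The median percentile of the 223 members was 56.3 in replicate 1 and 58.7 in replicate 2 (57.5 ± 1.70, mean ± SD, n = 2 libraries), against 70.3 and 69.1 for the clustered short regions (69.7 ± 0.868). The gap between the sets was larger than the spread between libraries in either set. Both sets were ranked in the same 2 libraries, so this spread does not weigh the difference, which was not tested. In fold itself the members ranged from 1.92 to 4.25 with a median of 2.43 in replicate 1, and from 1.78 to 3.69 with a median of 2.43 in replicate 2. In significance the members stood near their lists, with a median −log10 q of 2.92 and 3.06 in replicates 1 and 2. Over all peaks of the lists it was 2.98 and 2.72. A −log10 q of at least 5 was reached by 36 members (16.1%) in replicate 1, by 24 (10.8%) in replicate 2 and by 12 (5.38%, 95% Wilson interval 3.10 to 9.17%) in both. Among the clustered short regions these shares were 33.3%, 22.2% and 14.3%. Intervals cover counting error only, and neighbouring regions are not independent.

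The peaks behind the members were only a little longer than the members. Their median width was 1049 bp in replicate 1 and 1012 bp in replicate 2, and the region filled a median of 89.6% and 93.6% of them. In replicate 1 the peak reached 2000 bp or more in 16 members and in replicate 2 in 13, so that 27 members (12.1%) were the shared piece of a peak too long for the limit in at least 1 library. For the clustered short regions this was so in 45.6%. Neither library was wider throughout. The replicate 1 peak was the wider in 119 of 223 members, against 3149 of 4805 clustered short regions (65.5%).

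Longer members ranked higher. The 80 members of 1000 bp and over had median percentiles of fold of 65.9 in replicate 1 and 69.9 in replicate 2, against 49.9 and 53.7 for the 143 shorter ones. A −log10 q of at least 5 was reached by 31.25% and 23.75% of the longer members in the 2 libraries, against 7.69% and 3.497% of the shorter. The longer members also lay closer to H3K4me3, with median distances to a summit of 4404 bp and 6937 bp in the 2 H3K4me3 libraries, against 6629 bp and 8177 bp. The order was the same in each library. The ranges of the library medians overlapped, but both groups were measured against the same 2 libraries, so this overlap does not weigh the difference. With 2 libraries and no test, the difference remains a description.

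The 10 members with the highest mean percentile of fold lay on chromosomes 1, 3, 4, 7, 8, 9, 11 and 12. The first, on chromosome 3 at 23160660 to 23162284 (1625 bp), had a peak of 3485 bp with a fold of 3.46 in replicate 1 and a peak of 1625 bp with a fold of 3.37 in replicate 2. Its nearest H3K4me3 summits were at 1758 bp and 1795 bp in the 2 H3K4me3 libraries. The member on chromosome 7 at 21268580 to 21269423 (844 bp) reached a −log10 q of 5.71 in replicate 1 and 9.01 in replicate 2, the highest replicate 2 value of all members, with H3K4me3 summits at 2279 bp and 2330 bp. The member on chromosome 12 at 1546189 to 1547266 (1078 bp) ranked unevenly, with a fold of 4.03 (99.2nd percentile) in replicate 1 and 2.84 (82.7th percentile) in replicate 2. By contrast, the member on chromosome 11 at 24585732 to 24586918 (1187 bp) had near-equal peaks of 1191 bp and 1229 bp, folds of 3.51 and 3.22, and no H3K4me3 summit within 50 kb in either library. The remaining 6 were as varied. On chromosome 7, the member at 15679912 to 15681300 (1389 bp), with folds of 3.05 and 3.49, had summits at 37078 bp and 36996 bp. On chromosome 1, that at 38406283 to 38407837 (1555 bp), with folds of 3.03 and 3.53, had them at 1553 bp and 1508 bp and had 13 and 10 summits within 50 kb. On chromosome 3, that at 19972400 to 19973534 (1135 bp) had no other H3K27me3 region for 1248252 bp on its left, folds of 3.04 and 3.27, and summits at 3886 bp and 3802 bp. H3K27me3 replicate 2, however, held another peak 424 bp from this member, and replicate 1 held none within 20 kb. On chromosome 8, that at 11859225 to 11860530 (1306 bp) had folds of 3.05 and 3.20, and summits at 9597 bp and 14117 bp. The shortest of the 10, on chromosome 9 at 22393991 to 22394530 (540 bp), had folds of 3.49 and 2.79 and summits at 1846 bp and 2186 bp. The last, on chromosome 4, is described with the members farthest from H3K4me3.

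The fold ranks of the members were balanced between the H3K27me3 libraries, unlike those of isolated short regions that touched H3K4me3. Replicate 1 gave the higher percentile in 110 of 223 members (49.3%, 95% Wilson interval 42.8 to 55.8%), against 276 of the 311 isolated short regions with H3K4me3 (88.7%, 84.8 to 91.8%). The regions with H3K4me3 had median percentiles of 70.1 in replicate 1 and 29.8 in replicate 2. Percentiles lay at least 50 points apart in 6 members (2.69%), against 75 of those 311 regions (24.1%). In clustered short regions replicate 1 gave the higher percentile in 50.8%. What sets the libraries apart at H3K4me3 sites was not tested.

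**Figure D1:**
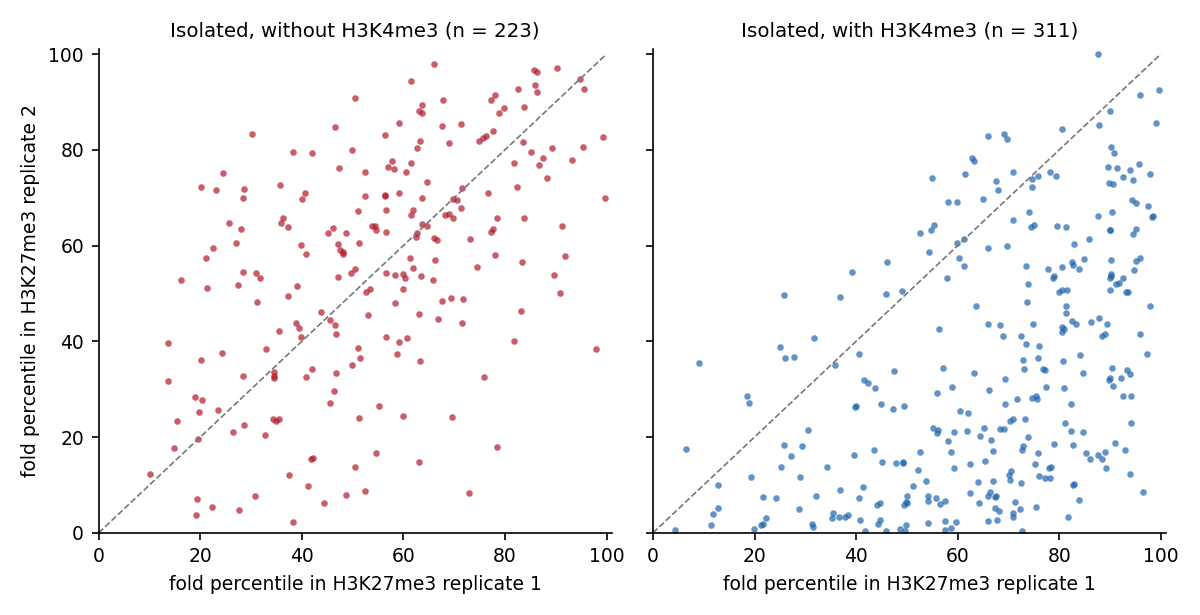
Percentile of fold within the list of H3K27me3 replicate 1 (x axis) and replicate 2 (y axis) for each isolated short region, without H3K4me3 at left (223 regions) and with H3K4me3 at right (311 regions); the dashed line marks equal percentiles. Points at left lie on both sides of the line, with 110 of 223 below it, and at right 276 of 311 lie below it.

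The regions were isolated from shared H3K27me3 more than from any H3K27me3 peak. In 63 members (28.3%) neither library held another H3K27me3 peak within 20 kb. In the other members at least 1 library did, in replicate 1 alone in 63, in replicate 2 alone in 45 and in both libraries, at different places, in 52. Among clustered short regions 98.5% had other peaks of both lists within 20 kb. The density of other H3K27me3 peaks changed with distance from the member. It is set over the genome density of all H3K27me3 peaks, shared or not, 53.0 and 52.2 per Mb. Unshared peaks alone were fewer, 6477 of 19774 in replicate 1 and 3932 of 19450 in replicate 2. Within 20 kb, where the rule removed every shared region, a ratio under 1 therefore does not show that unshared peaks were depleted. A ratio over 1 is likewise smaller than it would be over the density of unshared peaks alone. Within 0.5 kb of the edges only 1 peak centre in replicate 1 and 3 in replicate 2 were found (0.0845 and 0.258 times the genome density). Peaks of the same list lie at least 333 bp (replicate 1) and 277 bp (replicate 2) apart. A peak's centre lies farther still, so much of this interval could hold none. Between 0.5 and 1 kb from the edges, peak centres occurred at 2.03 times the genome density in replicate 1 (95% Poisson interval 1.30 to 3.02, 24 peaks). In replicate 2 they occurred at 2.15 times (1.39 to 3.17, 25 peaks). Around clustered short regions the values were 5.09 and 8.21 times, but there shared neighbours, which the rule removes around members, are counted as well. Between 2 and 5 kb from the members peak centres occurred at 0.621 and 0.316 times (32.9 and 16.5 per Mb). Between 10 and 20 kb they occurred at 0.178 and 0.125 times, where the rule had removed every shared region. Beyond the 20 kb set by the rule the density was near the genome value, with 0.963 and 0.930 times at 20 to 50 kb, against 1.504 and 1.543 times around clustered short regions.

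**Figure D2:**
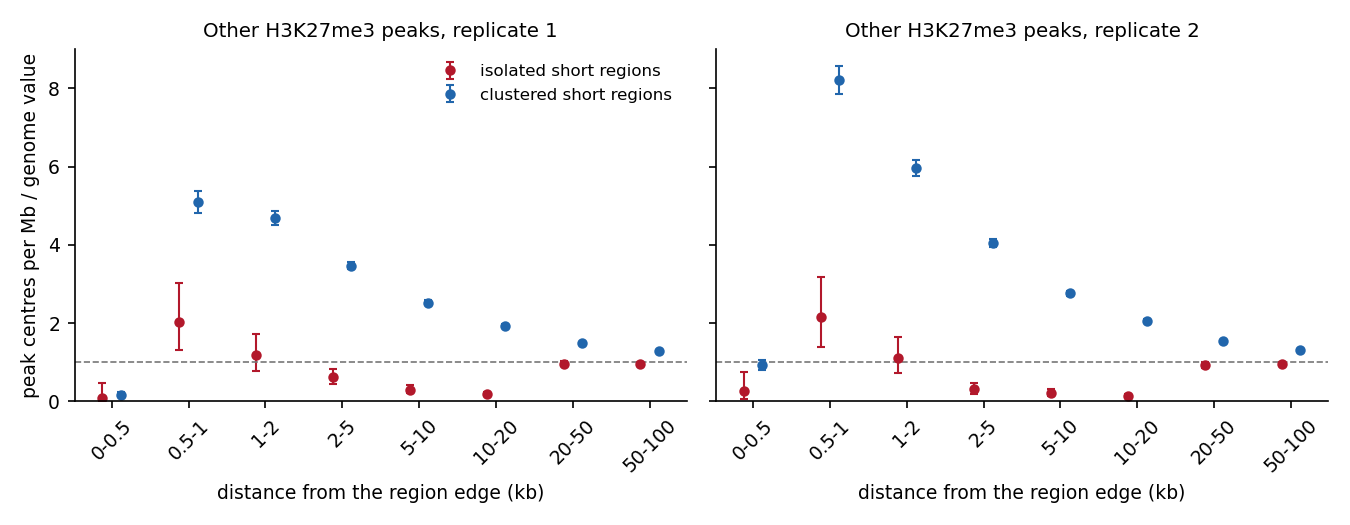
Density of other H3K27me3 peak centres around isolated and clustered short regions, over the genome density of all H3K27me3 peaks (y axis). The x axis gives the distance from the region edge in kb, for H3K27me3 replicate 1 at left and replicate 2 at right. Points are densities over all regions of the set with 95% Poisson intervals, and the dashed line marks the genome value. A peak near several regions is counted for each, so the intervals are too narrow, most of all around clustered regions. Around isolated short regions an excess at 0.5 to 1 kb (2.03 and 2.15 times) is followed by lower values, down to 0.178 and 0.125 times at 10 to 20 kb. Within 20 kb the rule removed every shared region, so these ratios do not show that unshared peaks were depleted. The values around clustered ones at that distance (5.09 and 8.21 times) include shared neighbours, which the rule removes around members.

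The other H3K27me3 peaks within 20 kb of members differed between the libraries in whether they touched H3K4me3. They include any peak that begins within 20 kb and is shared only beyond it. Of 178 such peaks in replicate 1, with a median width of 480.5 bp, 87 (48.9%) shared a base with an H3K4me3 peak. Of 131 in replicate 2, with a median width of 349 bp, 4 did (3.05%). Among all unshared peaks the shares were 40.7% of 6477 in replicate 1 and 2.42% of 3932 in replicate 2.

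Isolated short regions were found on all 12 chromosomes. Over the 372.8 Mb spanned by the peaks they occurred at 0.598 per Mb. The highest densities were 0.704 per Mb on chromosome 4 (25 members), 0.687 on chromosome 3 (25) and 0.671 on chromosome 1 (29), and the lowest was 0.431 on chromosome 10 (10). The range was 1.63-fold, on counts of 10 to 29. All H3K27me3 regions together ranged 1.31-fold. The share of short regions without H3K4me3 that were isolated was lowest on chromosomes 10 (3.23%) and 11 (3.33%) and highest on chromosome 4 (5.63%). Chromosome 11 had the most clustered short regions per Mb, 16.0, against 12.9 over the genome.

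**Figure D3:**
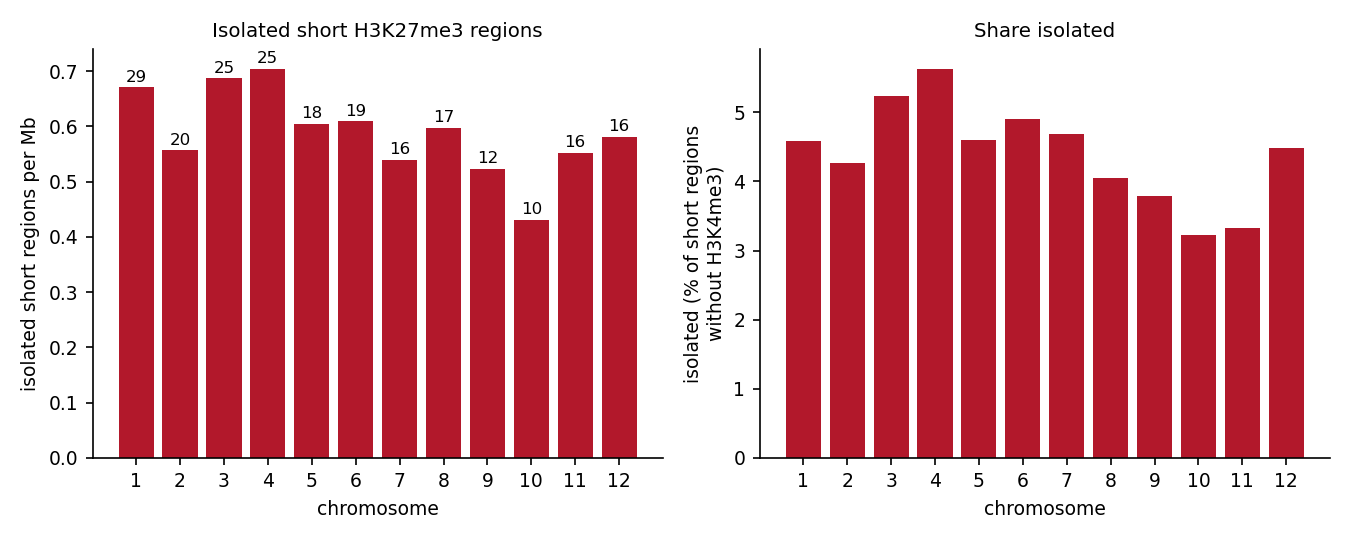
Isolated short H3K27me3 regions per Mb of each chromosome, with their number above each bar (left), and their percentage among short regions without H3K4me3 (right), for chromosomes 1 to 12. Chromosome 4 is highest in both panels (0.704 per Mb and 5.63%) and chromosome 10 lowest (0.431 per Mb and 3.23%).

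Along the chromosomes the members were spread more evenly than other H3K27me3 regions. The rule itself removes regions with a neighbour within 20 kb and so favours places where H3K27me3 regions are few. How far the rule sets this evenness was not tested. When each chromosome was cut into 5 equal parts, from its first to its last base, the parts held 52, 48, 44, 32 and 47 members. Parts 2 and 3 held 21.5% and 19.7% of the members, against 14.7% and 13.3% of the clustered short regions. They held 15.3% and 13.6% of all H3K27me3 regions. In these middle parts 6.35% and 6.44% of short regions without H3K4me3 were isolated, against 2.66% in part 4. The same 2 parts were poorest in H3K4me3, with 52.1 and 50.1 summits per Mb in replicate 1, against 92.7, 89.5 and 117 in parts 1, 4 and 5. Parts 1 and 4 held near-equal shares of all H3K27me3 regions (23.48% and 23.49%), and 4.40% and 2.66% of their short regions without H3K4me3 were isolated. Neighbouring members lay a median of 1.203 Mb apart from centre to centre. The closest pair, on chromosome 2, had centres 43.5 kb apart, and the widest stretch between neighbours, on chromosome 10, measured 8.83 Mb. Within 1 Mb of a chromosome end there were 15 members (6.73%), against 7.83% of clustered short regions.

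Isolated short regions lay about as far from H3K4me3 summits as other positions outside H3K4me3 peaks, or somewhat farther, with a summit within 10 kb of 67.7% of members in replicate 1 and 60.1% in replicate 2, against 68.3% and 64.0% of such positions. The median distance from the edge of a member to the nearest summit was 5683 bp in H3K4me3 replicate 1 and 7469 bp in replicate 2 (6576 ± 1263 bp, mean ± SD, n = 2 libraries). For clustered short regions it was 4740 bp and 5635 bp (5188 ± 633 bp), and over positions outside H3K4me3 peaks 5152 bp and 6053 bp. Members were the farther in each library. The ranges of the library medians nearly met, with 5683 bp for members and 5635 bp for clustered short regions. Both sets were measured against the same 2 libraries, so the closeness of these ranges does not weigh the difference, which was not tested. A summit lay within 5 kb of 46.6% of the members in replicate 1 and 38.6% in replicate 2, against 51.7% and 46.0% of clustered short regions. Of all positions outside H3K4me3 peaks, sampled every 100 bp, 49.1% and 44.5% lay within 5 kb. These positions are single bases, whereas a member is an interval wholly outside H3K4me3 peaks, measured from its nearer edge. The background is not matched for length, so the comparison with it is approximate. In both libraries a summit was within 5 kb of 81 members, and in 1 library only of 28.

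**Figure D4:**
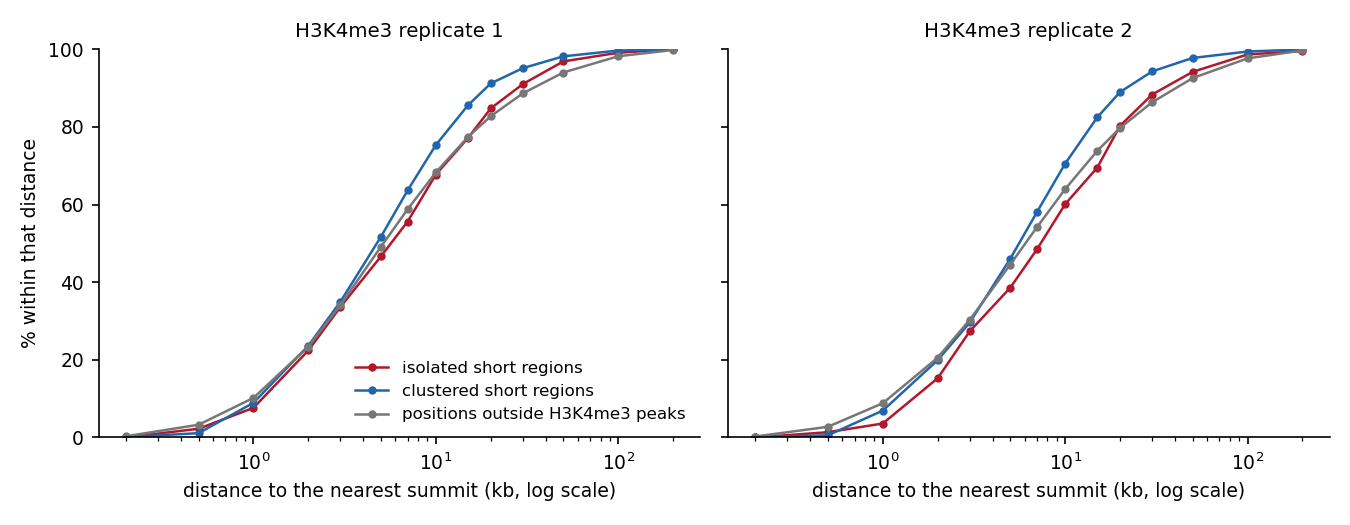
Percentage of isolated short regions, clustered short regions and positions outside H3K4me3 peaks (y axis) whose nearest H3K4me3 summit lies within the distance on the x axis (kb, log scale), for H3K4me3 replicate 1 at left and replicate 2 at right. At 10 kb the isolated short regions stand at 67.7% and 60.1%, the clustered ones at 75.3% and 70.5% and the positions at 68.3% and 64.0%.

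Summits were close on both sides of some members and far from others. In replicate 1 a summit lay within 20 kb on both sides of 108 members (48.4%), on 1 side of 81 (36.3%) and on neither side of 34 (15.2%), and in replicate 2 these counts were 92, 87 and 44. Among clustered short regions 58.6% and 52.0% had summits within 20 kb on both sides. In all, 32 members had no summit of either library within 20 kb (14.3%, against 7.60% of clustered short regions). By library, 15.2% of members in replicate 1 and 19.7% in replicate 2 had none, against 17.3% and 20.3% of positions outside H3K4me3 peaks, so the members were near the background in this. The stretch without summits that held a member had a median length of 29629 bp in replicate 1 and 35382.5 bp in replicate 2, against 23362.5 bp and 26914 bp for clustered short regions and 23666 bp and 28251 bp for positions outside H3K4me3 peaks.

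A few members lay within 1 kb of a summit, 17 in replicate 1 (7.62%) and 8 in replicate 2 (3.59%), against 8.93% and 6.91% of clustered short regions and 10.2% and 8.81% of positions outside H3K4me3 peaks. The 3 members nearest to a summit in replicate 1 lay on chromosome 8 at 1787517 to 1788690, on chromosome 2 at 19234370 to 19234960 and on chromosome 7 at 5407775 to 5408337, at 237, 274 and 281 bp. In replicate 2 their nearest summits were at 924, 238 and 269 bp. All 3 were thus within 1 kb in both libraries. Others were so in 1 library alone. The member on chromosome 6 at 13097163 to 13097722 had a summit at 345 bp in replicate 1 and at 16471 bp in replicate 2, and that on chromosome 5 at 11790060 to 11790970 had one at 35897 bp in replicate 1 and at 356 bp in replicate 2. All 5 stood at or below a percentile of 60.0 for H3K27me3 fold in both lists. With distance counted to the edge of the H3K4me3 peak, 12 members in replicate 1 and 6 in replicate 2 lay within 500 bp.

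At the other end, 7 members had no summit of either library within 50 kb (3.14%, against 1.52% of clustered short regions). A summit within 50 kb was no rarer for members than for positions outside H3K4me3 peaks, at 96.9% and 94.2% of members in the 2 libraries, against 94.0% and 92.6% of such positions. They lay on chromosomes 4 (2 members), 5, 6, 11 (2 members) and 12. The farthest, on chromosome 4 at 14373868 to 14374500 (633 bp), was 163855 bp and 164047 bp from a summit in replicates 1 and 2, and also 163213 bp from the next H3K27me3 region. Its H3K27me3 peaks measured 633 bp and 942 bp, with folds of 2.93 and 3.23, in the 82.5th and 92.7th percentile. It was therefore among the 10 members with the highest fold while standing alone in respect of both marks. The next, on chromosome 5 at 9643844 to 9644641 (798 bp), was 110525 bp and 110483 bp from a summit, with folds of 2.39 and 2.28 in the 53.0th and 45.6th percentile. The member on chromosome 4 at 1443487 to 1444223 had its nearest summits at 99747 bp in replicate 1 and 209200 bp in replicate 2. Its fold was 3.17 (89.6th percentile) in H3K27me3 replicate 1 and 2.37 (53.9th) in replicate 2. One on chromosome 11 at 16411609 to 16412132 (524 bp) showed the opposite order, with 2.58 (66.1st percentile) and 3.69 (98.0th). Another, on chromosome 12 at 16287351 to 16288152 (802 bp), at 77503 bp and 76992 bp from a summit, ranked lower, with folds of 2.30 (45.5th percentile) and 2.11 (27.2nd). Distance from H3K4me3 thus went with high and with middling H3K27me3 fold among these members.

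Local H3K4me3 density around the members was near the genome value and below that around clustered short regions. Within 50 kb of the edges there were 76.4 summits per Mb in replicate 1 and 68.4 in replicate 2, or 0.952 and 0.930 times the genome densities of 80.3 and 73.5 per Mb (0.941 ± 0.0152, mean ± SD, n = 2 libraries). Around clustered short regions the ratio was 1.08 in each library (1.083 ± 0.00058), and around isolated short regions with H3K4me3 it was 1.10 in each. The gap between isolated and clustered regions was larger than the spread between libraries. Both sets were measured against the same 2 libraries, so this spread does not weigh the difference. The rule itself favours places where H3K27me3 regions are few, and how far it sets this difference was not tested. The position relative to the genome value depended on the threshold of the H3K27me3 lists. When H3K27me3 peaks under a −log10 q of 5 were left out, 160 regions met the rule, 12 of them among the 223, and the ratio was 1.02, against 1.12 for clustered short regions. That threshold also turned round the order of the distances to a summit, with means of 4578 bp for isolated and 4975 bp for clustered regions. The same threshold in all lists did so too, with 6120.5 bp and 6341 bp.

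The density by distance was not lower in every interval near the members. At 1 to 2 kb from the edges it was 1.03 times the genome value in replicate 1 (95% Poisson interval 0.727 to 1.42, 37 summits) and 0.823 times in replicate 2 (0.543 to 1.198, 27 summits). At 2 to 5 kb from the edges it was 0.783 times the genome value in replicate 1 (95% Poisson interval 0.625 to 0.970) and 0.825 times in replicate 2 (0.655 to 1.03), at 5 to 10 kb 0.879 and 0.874 times, at 10 to 20 kb 0.932 and 0.899 times, and at 20 to 50 kb 1.00 and 0.987 times. Around clustered short regions it was 0.990 and 0.976 times at 2 to 5 kb and 1.13 and 1.14 times at 20 to 50 kb. Within 500 bp of the members only 5 and 3 summits were found, 0.279 and 0.183 times the genome value, in a zone where the rule had removed regions touched by H3K4me3 peaks. Clustered short regions, subject to the same removal, stood at 0.137 and 0.0764 times there.

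**Figure D5:**
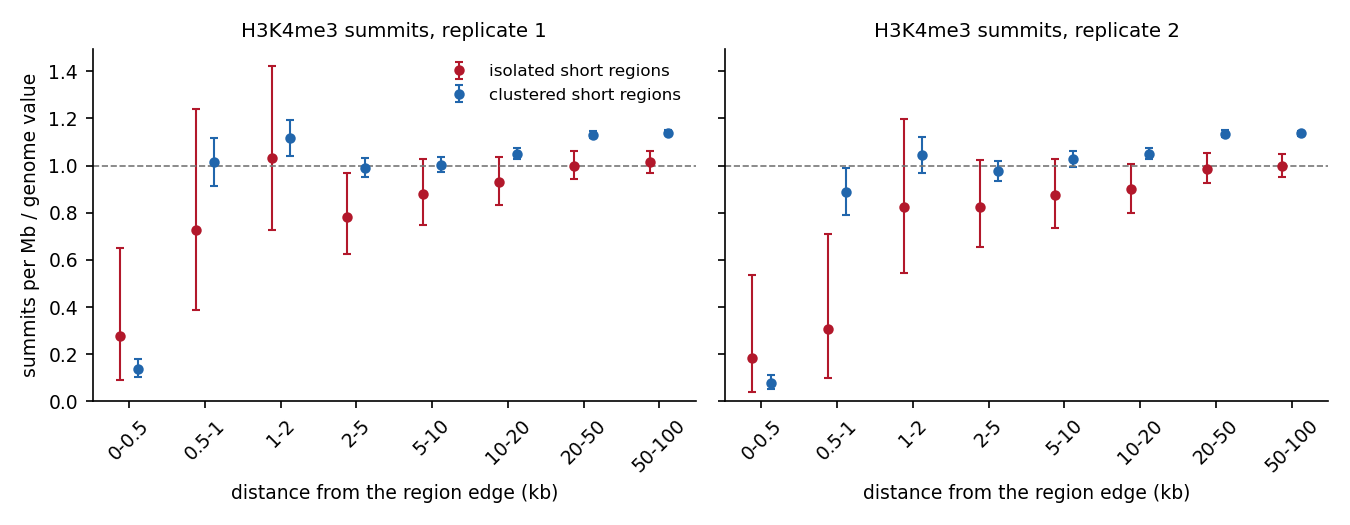
Density of H3K4me3 summits around isolated and clustered short regions, over the genome density (y axis), by distance from the region edge in kb (x axis), for H3K4me3 replicate 1 at left and replicate 2 at right. Points are densities over all regions of the set with 95% Poisson intervals, and the dashed line marks the genome value. A summit near several regions is counted for each, so the intervals are too narrow, most of all around clustered regions. The isolated short regions approach the genome value at 20 to 50 kb (1.00 and 0.987 times), and the clustered ones exceed it there (1.13 and 1.14 times).

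Single members varied widely in this density. The number of summits within 50 kb ran from 0 to 23 in replicate 1 (median 7) and from 0 to 21 in replicate 2 (median 6), and more than 10 were found at 62 members (27.8%) and 52 members (23.3%). The densest surroundings were those of the member on chromosome 5 at 28355228 to 28356032, with 23 and 17 summits, and of that on chromosome 6 at 28840758 to 28841481, with 19 and 21. The next by the mean of the libraries was on chromosome 10 at 22266510 to 22267159, with 18 and 20. In these 3 the H3K27me3 peaks ranked between the 23.6th and the 69.9th percentile of fold. The 25 members at or above the 75th percentile in both H3K27me3 lists had a mean of 6.88 summits within 50 kb in replicate 1 and 5.88 in replicate 2. Their median distances to a summit were 9597 bp and 14117 bp. The 7 members under the 25th percentile in both lists had a mean of 5.57 summits within 50 kb in replicate 1 and 5 in replicate 2, and median distances of 11860 bp and 11937 bp. Both sets lay farther from a summit than the median of all members in each library.

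The H3K4me3 peak nearest to a member was of middling rank in its own list. Its median percentile of fold was 47.9 in replicate 1 and 49.0 in replicate 2, against 35.5 and 41.2 for the peaks nearest to clustered short regions and 28.0 and 38.4 for those nearest to isolated short regions with H3K4me3. Its median width was 528 bp and 402 bp, against 547 bp and 404 bp beside clustered short regions. The nearest peaks of the 2 libraries overlapped each other in 154 members (69.1%, against 70.8% of clustered short regions). Of the peaks nearest to members, 73.5% in replicate 1 and 91.9% in replicate 2 were found in the other H3K4me3 list, against 77.9% and 90.2% of those nearest to clustered short regions.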

How the data were processed

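Peak lists of 4 libraries, 2 each for H3K27me3 and H3K4me3, were used as deposited. Tools named in the submitters' processing notes include MACS2 for peaks, Bowtie2, fastp, SAMtools, Picard and deepTools. No source used here gives versions, control, thresholds or genome build, and peak names carry different tags (merge, uniq, subsample) in 3 of the lists. Each peak's deposited fold enrichment, a ratio, is the authors' value and entered as a percentile within its own list. The deposited −log10 p and −log10 q are the authors' caller's; the smallest −log10 q is 1.02 and 1.01 in the H3K27me3 lists and 2.01 in both H3K4me3 lists. Read depth is unknown; depth affects how many peaks a list holds and how wide they are. The lists hold 19774 and 19450 H3K27me3 peaks and 29941 and 27411 H3K4me3 peaks.

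Intervals were handled in Python 3.11.15 with numpy 2.4.6 and scipy 1.17.1, figures with matplotlib 3.10.9, and the code was tested on simulated lists. Starts are counted from 1. Chromosome lengths are the last peak end of any list. Distances run from the region edge to the summit base, and densities leave out the region. The peak behind a region is the one that shares the most bases with it. The regions named are the 10 with the highest mean percentile of fold, the 5 farthest from and nearest to a summit, the 3 with the most and fewest summits within 50 kb, the 3 most isolated, and the 3 on each side of each limit. The members, limits and comparison sets were chosen with earlier results of these data known, and no test was made. Alternatives changed the limits, the thresholds, the overlap and the libraries.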

Additional observations from a re-analysis of the deposited data

How the results depend on the processing

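No paired analysis was possible because no result comes from a test. The 8 results were the number of isolated short regions (223), their share of short regions without H3K4me3 (4.44%), their median length (826 bp), percentile of fold (57.5), peak width (1030.5 bp) and distance to a summit (6576 bp), the summit density within 50 kb over the genome value (0.941) and the share with a summit within 5 kb (42.6%). Isolation by 10 kb gave 376 regions, 7.48% and a density of 0.984, and isolation by 50 kb gave 81 regions, 1.61%, a width of 1144 bp and 0.838. Isolation from peaks of either H3K27me3 list gave 63 regions, 1.25%, a percentile of 54.7, a width of 986 bp and 0.854. When only H3K4me3 regions of both lists counted, the share isolated was 5.25%, the width 1062 bp, the distance 5074 bp and the share within 5 kb 49.3%. A −log10 q of at least 5 in the H3K27me3 lists kept 12 of the 223 and gave 22.9%, a length of 1216.5 bp, a percentile of 88.9, a width of 1672 bp, a distance of 4578 bp, 52.2% within 5 kb and a density of 1.02, on the other side of the genome value; the cause was not tested. The same threshold in all lists kept the same number and gave 24.5%, 1190 bp, 88.5, 1611 bp and a density of 0.995. With peaks that shared at least 50% of both there were 473 regions (16.8%), with 912 bp, 60.9, 1106.5 bp and a density of 0.971. This setting held fewer short regions without H3K4me3, and what set the higher number of isolated ones was not tested. Joining pieces up to 200 bp apart changed nothing, since the smallest gaps between H3K27me3 peaks are 277 and 333 bp. The density was 0.862 within 20 kb and 0.974 within 100 kb, and a summit lay within 2 kb of 18.8% and within 10 kb of 63.9%. Leaving out each library in turn gave 239 to 286 regions, shares of 4.16 to 4.87%, lengths of 762 to 834 bp, percentiles of 43.5 to 57.9, widths of 762 to 1054 bp, distances of 5577.5 to 8166.5 bp, densities of 0.812 to 0.947 and 35.4 to 47.6% within 5 kb. The density of 0.812 and the distance of 8166.5 bp came without H3K27me3 replicate 2, where 100 of the 239 regions overlapped one of the 223. The density around isolated regions was below that around clustered ones in each of these settings of the limits, thresholds and libraries. In each of them the rule favours places where H3K27me3 regions are few, and how far it sets this order was not tested.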
